A study of Mus musculus with 9 samples.

Results

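The granins and neuropeptides described here are 10 genes, chosen by symbol from the 21930 rows of the FPKM table: the granins Chga, Chgb, Scg2, Scg3 and Scg5, and the neuropeptide precursors Calca, Calcb, Vip, Npy and Tac1. FPKM counts fragments per kilobase of transcript, relative to the total of the library. The set was proposed with the values of all libraries known, and Chga stood out in both comparisons with exosome-treated mucosa, so the differences in those comparisons are given as a description without p-values. The tissue was nasal mucosa of wild-type (WT) mice, read as 9 poly(A) RNA libraries, 3 for each of 3 groups. The papain+MSC-Exos group (eCRS_Exo) had the papain courses and, from day 7 to 11, intranasal exosomes, which are small vesicles released here by mesenchymal stem or stromal cells (MSC). The papain group (eCRS, a model of eosinophilic chronic rhinosinusitis) had 20 µg of papain, a plant cysteine protease, in 20 µl on days 0 to 2 and 7 to 11. The control group is labelled as untreated. Phosphate-buffered saline was given in place of exosomes to some mice, and the labels do not say to which groups, so it is not known whether papain or control mice had vehicle. Tissue was taken on day 12. Strain, age and sex are not given in the labels, and they do not say that each library is its own mouse, so the p-values rest on a spread that may be technical.

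Granins are acidic proteins that aggregate with peptide hormones and help form dense-core secretory granules, and several are themselves cut into bioactive peptides. Neuropeptides are made as larger precursors in the same granules, freed by convertases, trimmed and often amidated, and released by regulated exocytosis. In the nose, sensory fibres of the trigeminal nerve carry calcitonin gene-related peptide (CGRP) and substance P, autonomic fibres carry vasoactive intestinal peptide and neuropeptide Y, and neurons and endocrine-type cells of airway epithelia hold granins. The cell bodies of the sensory and autonomic fibres lie in ganglia outside the mucosa.

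Of the 10 genes, 8 passed the expression filter of at least 1 FPKM in at least 3 libraries. Calca and Calcb passed it through the 3 papain libraries alone, and Chgb through the 3 papain+MSC-Exos libraries and control library 2, so these genes had to differ between groups to be tested. The scale of the libraries also differed. The factor that aligns the medians of the libraries (median of ratios) was 1.75, 1.6 and 1.18 in papain+MSC-Exos, 1.07, 0.71 and 0.971 in papain, and 0.764, 0.763 and 0.765 in control. Papain library 2 and papain+MSC-Exos library 3 therefore stood apart from the others of their group. The median gene was 0.56 higher on the log2(FPKM + 1) scale in papain+MSC-Exos than in papain as deposited, and -0.01 after scaling. Each difference is therefore given as deposited and after median-of-ratios scaling. Depth was roughly 15.3 to 25.4 M fragments a library (M, mega).

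Chga, chromogranin A (ENSMUSG00000021194, chr12:102554969-102565028, plus strand, GRCm38), had the highest mean of the 10 genes in every group. It had 162, 146 and 81.3 FPKM in papain+MSC-Exos, 40, 14.4 and 26.8 FPKM in papain, and 35.5, 44.9 and 29.8 FPKM in control. All 3 exosome-treated libraries lay above all 6 others, and papain and control overlapped. After scaling the levels were 84.5 ± 13.4 FPKM in papain+MSC-Exos, 28.5 ± 8.6 in papain and 48.1 ± 10 in control (SD, n = 3 each), and the 3 groups no longer overlapped. The difference of papain+MSC-Exos from papain was 2.27 ± 0.29 (SE) on the log2(FPKM + 1) scale as deposited and 1.57 ± 0.22 after scaling. Its difference from control was 1.75 ± 0.29 as deposited and 0.81 ± 0.22 after scaling. Papain against control gave -0.52 ± 0.29 (adjusted p = 0.383) as deposited and -0.76 ± 0.22 (adjusted p = 0.0585) after scaling, by limma with Benjamini-Hochberg adjustment over all genes tested. In bulk tissue, fewer cells of a type cannot be told apart from less RNA per cell.

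Chgb, chromogranin B (ENSMUSG00000027350, chr2:132781278-132795079, plus strand), is a second matrix protein of the same granules and was far less abundant. It had 3.39, 3.34 and 1.78 FPKM in papain+MSC-Exos, 0.725, 0.47 and 0.337 FPKM in papain, and 0.675, 1.36 and 0.902 FPKM in control. The exosome-treated libraries were again above all others, while 1 control library fell inside the papain range. The difference of papain+MSC-Exos from papain was 1.32 ± 0.20 as deposited and 0.87 ± 0.16 after scaling. That from control was 0.94 ± 0.20 as deposited and only 0.33 ± 0.16 after scaling, where the libraries overlapped. For papain against control the values were -0.38 ± 0.20 (limma adjusted p = 0.338) and -0.54 ± 0.16 (adjusted p = 0.0608).

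Scg3, secretogranin III (ENSMUSG00000032181, chr9:75643189-75684056, minus strand), binds chromogranin A and cholesterol-rich granule membrane. It had 16.6, 10.7 and 11.3 FPKM in papain+MSC-Exos, 6.09, 1.88 and 2.98 FPKM in papain, and 3.07, 6.01 and 3.48 FPKM in control. All exosome-treated libraries exceeded the rest as deposited, and papain library 1 sat at the level of control library 2. The difference from papain was 1.65 ± 0.28 as deposited and 1.04 ± 0.26 after scaling, and that from control was 1.44 ± 0.28 as deposited and 0.60 ± 0.26 after scaling, with overlap. Papain against control gave -0.22 ± 0.28 (limma adjusted p = 0.704) and -0.44 ± 0.26 (adjusted p = 0.331). An unclassified gene, Gm37871, overlaps Scg3 on the opposite strand, and the strand setting of the counting is not given in the sources used here.

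Scg5, the chaperone 7B2 of prohormone convertase 2 (ENSMUSG00000023236, chr2:113776362-113829121, minus strand), was the second in mean level in every group. It had 17.4, 22.5 and 13.2 FPKM in papain+MSC-Exos, 16, 4.85 and 7.67 FPKM in papain, and 10.5, 12.7 and 9.74 FPKM in control. The papain group was the most spread, with library 1 inside the exosome-treated range and the other 2 below every control library. The difference of papain+MSC-Exos from control was 0.62 ± 0.28 as deposited and turned to -0.27 ± 0.24 after scaling. Against papain it was 0.95 ± 0.28 as deposited and 0.29 ± 0.24 after scaling. The papain difference from control was -0.33 ± 0.28 (limma adjusted p = 0.563) and -0.56 ± 0.24 (adjusted p = 0.172).

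Scg2, secretogranin II, the precursor of secretoneurin (ENSMUSG00000050711, chr1:79434669-79440120, minus strand), showed no separation of groups. It had 2.97, 2.82 and 1.09 FPKM in papain+MSC-Exos, 2.41, 0.739 and 2.09 FPKM in papain, and 1.49, 1.23 and 1.42 FPKM in control. The low values were those of papain+MSC-Exos library 3 and papain library 2, and every pair of groups overlapped. Papain+MSC-Exos differed from papain by 0.26 ± 0.25 as deposited and -0.18 ± 0.19 after scaling, and from control by 0.41 ± 0.25 and -0.20 ± 0.19. Papain differed from control by 0.15 ± 0.25 (limma adjusted p = 0.773) and -0.02 ± 0.19 (adjusted p = 0.954).

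**Figure D1:**
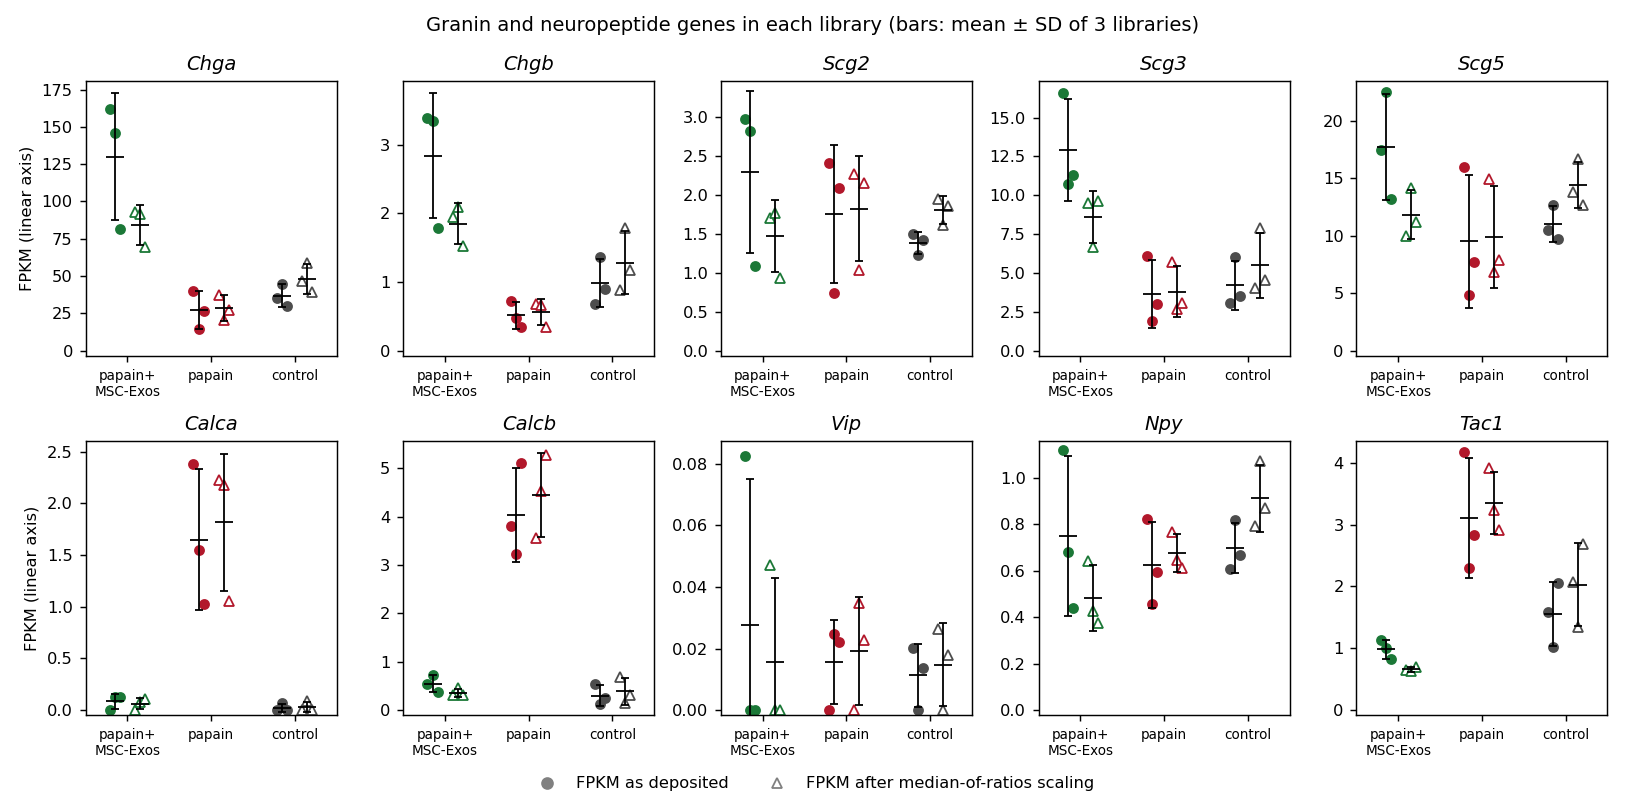
Level of each of the 10 genes in every library, in FPKM, with papain+MSC-Exos, papain and control from left to right in each panel; filled circles are FPKM as deposited, open triangles are FPKM after median-of-ratios scaling, and bars are mean ± SD of 3 libraries. Chga is highest in the exosome-treated libraries at 81.3 to 162 FPKM as deposited, and Calcb is highest in the papain libraries at 3.22 to 5.12 FPKM.

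Summed over the 5 granin genes, the scaled level was 116, 116 and 92.4 FPKM in papain+MSC-Exos, 61, 31.5 and 41 FPKM in papain, and 67.1, 86.8 and 59.3 FPKM in control. Chga made up 74.8% to 80.1% of that sum in papain+MSC-Exos, 61.4% to 67.2% in papain and 65.8% to 69.3% in control. The makeup of the granins thus differed along with their amount, with the largest share of Chga in the exosome-treated libraries. Across the 9 libraries the scaled log2 level of Chga had a Pearson correlation of 0.90 with Chgb and 0.89 with Scg3, but 0.53 with Scg5 and -0.03 with Scg2. These correlations describe 9 points that share tissue, library and scaling factor.

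The windows around the RefSeq transcription starts (250 bases before to 50 after, GRCm38.p6) of 9 of the 10 genes were searched for the cyclic AMP response element, the palindrome TGACGTCA that is bound by CREB-family factors, and for its shorter form TGACG, which reads as CGTCA on the other strand. The palindrome was present in Chgb and Scg2, and is held by 1.79% of all 32851 windows. The shorter form, counted outside the palindrome, was present in Chga, Scg3, Scg5, Calca, Vip and Tac1, and Npy had neither. Of all windows 20.8% held the shorter form. That share includes windows with the palindrome, which contains the shorter form. Counted the same way, all of the 9 genes but Npy held it. The 3 granin windows below contrast the pair with the palindrome, Chgb and Scg2, with Chga. Each runs 5′ to 3′ on the strand of the gene, with the motif in capitals, and the regions are chr2:132781559-132781588 (plus), chr1:79440076-79440105 (minus) and chr12:102554885-102554914 (plus).
Chgb: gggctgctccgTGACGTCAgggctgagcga
Scg2: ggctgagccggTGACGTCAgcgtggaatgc
Chga: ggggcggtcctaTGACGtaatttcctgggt
The motif begins at base -72 in Chgb, -68 in Scg2 and -44 in Chga, counted from the RefSeq start site. The gene spans given above are from GENCODE, whose starts can differ. The Chgb and Scg2 motifs lie inside those spans, and that of Chga lies before its span. Chgb and Scg2 share the full element. As deposited, both were highest in mean with exosomes (Scg2 at 2.29 FPKM, against 1.75 in papain and 1.38 in control). The exosome-treated libraries lay above all others for Chgb, whereas every pair of groups overlapped for Scg2. Chga, with the shorter form, had a level pattern near that of Chgb. A match is a description of letters and not of a bound site, and its part in the levels was not tested.

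Calcb and Calca encode the precursors of the CGRP peptides, vasodilators and modulators of immune cells, and their highest levels were in papain, where Chga was lowest in mean. Both were under 1 FPKM in every control and every exosome-treated library. Since the filter admitted them through the papain libraries alone, the p-values given for them are from a fit of all 21930 rows with no filter. Calcb (ENSMUSG00000030666, chr7:114718643-114723365, plus strand) had 0.53, 0.728 and 0.373 FPKM in papain+MSC-Exos, 3.8, 3.22 and 5.12 FPKM in papain, and 0.53, 0.118 and 0.243 FPKM in control. Every papain library was above every other library, and the 2 other groups overlapped. The mean was 13.6 times as high in papain as in control, and the difference was 1.95 ± 0.18 as deposited (limma adjusted p = 0.0123 with no filter) and 1.98 ± 0.16 after scaling. Papain+MSC-Exos differed from papain by -1.70 ± 0.18 as deposited and -1.99 ± 0.16 after scaling, and from control by 0.26 ± 0.18 and -0.01 ± 0.16.

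Calca (ENSMUSG00000030669, chr7:114631478-114636357, minus strand), which also encodes calcitonin, lies 82285 bases from Calcb. It had 0, 0.129 and 0.128 FPKM in papain+MSC-Exos, 2.38, 1.55 and 1.03 FPKM in papain, and 0, 0.0646 and 0 FPKM in control. Papain libraries were all at 1 FPKM or more, while the other libraries were listed at 0 or at a small fraction of 1 FPKM. The papain difference from control was 1.35 ± 0.17 as deposited (limma adjusted p = 0.0335 with no filter) and 1.43 ± 0.17 after scaling. Papain+MSC-Exos differed from papain by -1.26 ± 0.17 as deposited and -1.38 ± 0.17 after scaling, and from control by 0.09 ± 0.17 and 0.05 ± 0.17. The 2 genes share only 12 windows of 50 bases in their transcripts, 0.715% of those of Calca and 0.952% of those of Calcb. Calca has 7 annotated transcripts, and a value per gene does not separate its calcitonin and CGRP forms.

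Tac1 (ENSMUSG00000061762, chr6:7554879-7565834, plus strand) encodes the precursor of substance P and neurokinin A. It had 1.13, 0.998 and 0.821 FPKM in papain+MSC-Exos, 4.18, 2.29 and 2.83 FPKM in papain, and 1.59, 1.02 and 2.05 FPKM in control. The papain libraries were above all others, and the exosome-treated and control libraries overlapped as deposited. After scaling the 3 groups stood apart, at 0.646, 0.625 and 0.698 FPKM in papain+MSC-Exos, 3.91, 3.23 and 2.91 FPKM in papain, and 2.07, 1.34 and 2.68 FPKM in control. The papain difference from control did not pass the test at 0.68 ± 0.20 (limma adjusted p = 0.0668) as deposited and 0.54 ± 0.15 (adjusted p = 0.0549) after scaling. It passed when only these 2 groups were fitted (adjusted p = 0.0258), and as deposited without papain library 2 (0.82) or papain+MSC-Exos library 3 (0.68). Papain+MSC-Exos differed from papain by -1.03 ± 0.20 as deposited and -1.39 ± 0.15 after scaling, and from control by -0.35 ± 0.20 and -0.85 ± 0.15.

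Summed over Calca, Calcb and Tac1, the scaled level was 0.95, 1.16 and 1.12 FPKM in papain+MSC-Exos, 9.69, 9.94 and 9.24 FPKM in papain, and 2.77, 1.58 and 3 FPKM in control. As deposited the papain libraries had 10.4, 7.06 and 8.98 FPKM, so their closeness holds after scaling only. Within it Calca ran from 1.06 to 2.23 scaled FPKM and Calcb from 3.55 to 5.27, with Calca lowest and Calcb highest in papain library 3. Of the CGRP pair, Calcb contributed 61.4%, 67.5% and 83.3% in the papain libraries. Calca and Tac1 are shown because each holds the shorter cyclic AMP motif in its RefSeq window, at chr7:114636405-114636434 (minus strand) and chr6:7555006-7555035 (plus strand). The RefSeq table used here lists no window for Calcb.
Calca: gaagcacagaggTGACGcaatctgtctggg
Tac1: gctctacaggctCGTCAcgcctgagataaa
The motif, in capitals, begins at base -65 in Calca and -43 in Tac1, counted from the RefSeq start site. Tac1 holds the shorter form again at base -197. The printed Tac1 motif lies inside the GENCODE span of the gene, and that of Calca lies before its span. The part of the motif in the levels of these genes was not tested.

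Vip and Npy, the precursors of the autonomic peptides, were not tested. Vip (ENSMUSG00000019772, chr10:5639218-5647617, plus strand) was listed at 0 in 4 libraries and reached at most 0.0824 FPKM, in papain+MSC-Exos library 1. Npy (ENSMUSG00000029819, chr6:49822710-49829507, plus strand) had 1.12, 0.682 and 0.44 FPKM in papain+MSC-Exos, 0.821, 0.457 and 0.596 FPKM in papain, and 0.606, 0.818 and 0.666 FPKM in control. All 3 groups overlapped as deposited. After scaling Npy averaged 0.481 ± 0.142 FPKM in papain+MSC-Exos, 0.675 ± 0.0819 in papain and 0.912 ± 0.144 in control (SD, n = 3 each), with the control libraries above all others.

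By mean FPKM as deposited, the order in papain+MSC-Exos was Chga, Scg5, Scg3, Chgb, Scg2, Tac1, Npy, Calcb, Calca, Vip. In papain it was Chga, Scg5, Calcb, Scg3, Tac1, Scg2, Calca, Npy, Chgb, Vip, and in control it was Chga, Scg5, Scg3, Tac1, Scg2, Chgb, Npy, Calcb, Calca, Vip. Calcb was in the third place in papain and in the eighth in both other groups. In papain most neighbours in the order overlapped; the exceptions were Calca and Npy, and Chgb and Vip. In papain+MSC-Exos Chga, Scg3 and Calcb each lay clear of the next in order, and in control Chga, Scg5, Scg3, Npy and Calcb did so.

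Against control, 2 of the 8 tested genes were called higher with papain (Calca and Calcb) and 0 lower, on both scales; of all genes tested, 3.01% were called higher and 0.518% lower as deposited, and 5.77% and 4.15% after scaling. Both genes were admitted by the filter through the papain libraries alone, so nothing is read from their count. At an unadjusted p under 0.05, 0 were lower as deposited and 3 after scaling. The papain calls are not independent evidence either, since the set was proposed with these libraries known. With papain+MSC-Exos against papain, 4 of the 8 were called higher as deposited (Chga, Chgb, Scg3 and Scg5), beside 63% of all genes, and 3 lower (Calca, Calcb and Tac1), beside 0.73%. After scaling 3 were called higher and 3 lower, beside 13.4% and 16.2% of all genes. In papain+MSC-Exos against control, 4 were called higher and 0 lower as deposited, beside 84.3% and 0.526%. After scaling 1 was called higher (Chga) and 1 lower (Tac1), beside 12.3% and 15.6%. The comparisons share their groups, and the exosome comparisons were known when the genes were proposed, so these counts are a description.

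**Figure D2:**
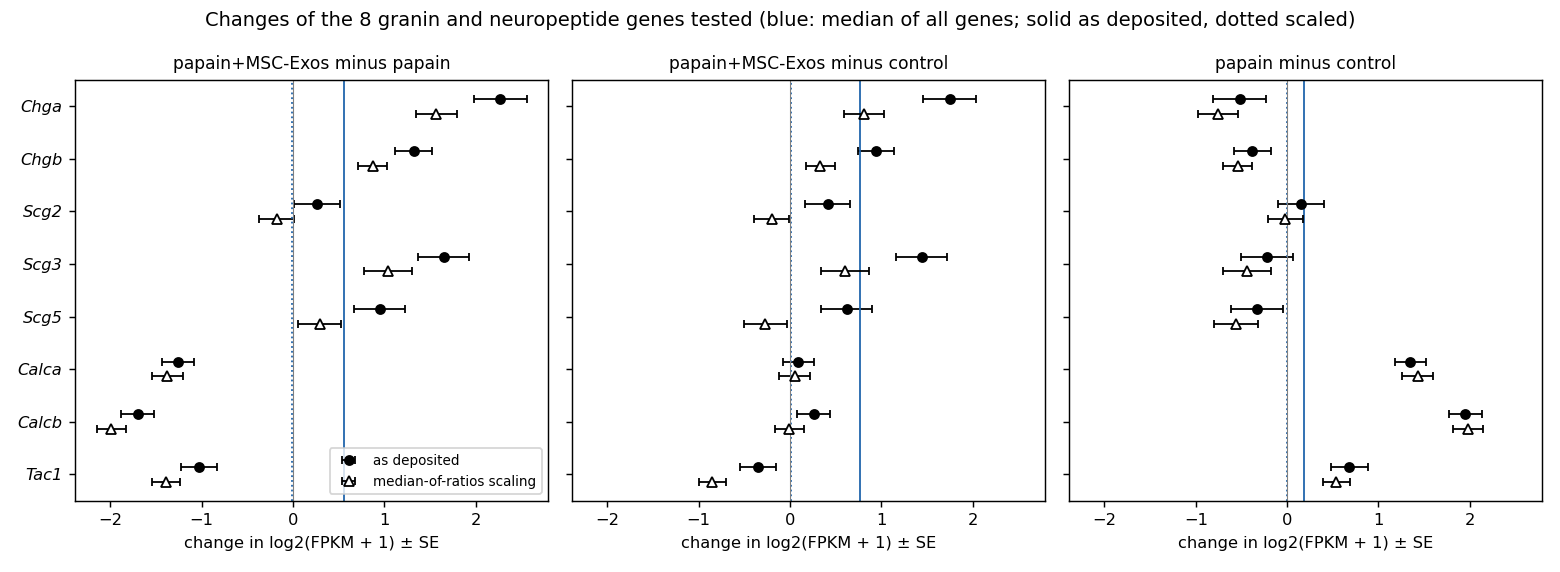
Difference on the log2(FPKM + 1) scale, with its SE, for the 8 tested genes in papain+MSC-Exos minus papain, papain+MSC-Exos minus control and papain minus control; filled circles are as deposited, triangles are after median-of-ratios scaling, and blue lines mark the median of all genes. Chga (2.27) and Calcb (-1.70) lie at opposite ends of the first panel, and Scg5 changes side with scaling in the second.

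The calls in this paragraph are in comparisons known when the genes were proposed, so their dependence on single libraries is a description only. The scaled difference of Chga between papain+MSC-Exos and control was no longer called without control library 1 (0.79) or 3 (0.67) or without papain+MSC-Exos library 1 (0.73) or 2 (0.74). The scaled difference of Scg3 between papain+MSC-Exos and papain was not called without papain library 2 (0.86) or 3 (0.94) or papain+MSC-Exos library 1 (0.96). The deposited difference of Scg5 between the same groups was not called without papain library 2 (0.60). That between papain+MSC-Exos and control was not called without control library 1 (0.60) or 3 (0.55), papain library 3 (0.62) or papain+MSC-Exos library 1 (0.62) or 2 (0.44), nor with no filter (0.62) or a pseudocount of 0.1 (0.66).

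Markers of some other cell types, but not of all, were lowest in mean in papain, as the granin sum was. After scaling, the summed means in papain+MSC-Exos, papain and control were 144, 122 and 136 FPKM for immature olfactory neurons. They were 66.4, 45.5 and 47.9 for vomeronasal neurons and 932, 973 and 907 for sustentacular cells. For ensheathing and Schwann cells they were 36.5, 54.1 and 60.7. Mature olfactory neurons did not separate papain+MSC-Exos from control (1339 and 1375), unlike the granin sum (108 and 71.1). The 15 markers of mature olfactory sensory neurons, among them Omp, summed to 1354, 1627 and 1035 scaled FPKM in papain+MSC-Exos, 910, 479 and 655 in papain, and 1369, 1482 and 1273 in control. After scaling, 14 of the 15 rose with papain+MSC-Exos against papain by limma, beside 13.4% of all genes. With papain against control 10 fell, beside 4.15%, and with papain+MSC-Exos against control 1 (Gfy) rose, beside 12.3%. As deposited 15 were higher with papain+MSC-Exos than with papain, beside 63% of all genes, and 13 were higher than in control, beside 84.3%. With papain against control 0 fell, beside 0.518% (10 at an unadjusted p under 0.05, all lower). Chga per 100 FPKM of these markers was 6.86, 5.62 and 6.68 in papain+MSC-Exos, 4.12, 4.25 and 4.21 in papain, and 3.4, 3.97 and 3.06 in control. The ratio of Chga was highest in the exosome-treated libraries, and this was not particular to Chga. Syp, a neuroendocrine marker outside the granins, had the same order. It was 1.56 to 1.67 in papain+MSC-Exos, 1.44 to 1.48 in papain and 0.903 to 1.12 in control. Uchl1, another such marker, was 2.86 to 3.91, 3.59 to 3.97 and 1.91 to 2.73, highest in mean in papain. The ratios of the other granins were not alike. Scg2 per 100 FPKM of the markers was 0.0897 to 0.126 in papain+MSC-Exos, 0.217 to 0.329 in papain and 0.108 to 0.146 in control, and Scg5 was 0.737 to 1.09, 1.21 to 1.64 and 1 to 1.12 in the same groups, both highest in papain. Chgb was 0.128 to 0.146 in papain+MSC-Exos, 0.053 to 0.138 in papain and 0.0645 to 0.121 in control, and Scg3 was 0.411 to 0.928, 0.468 to 0.625 and 0.293 to 0.532, so both overlapped between papain+MSC-Exos and papain. Among neuroendocrine markers, Ddc, Tph1 and Nkx2-2 were under 1 FPKM in all 9 libraries, and the summed scaled level was 83.5 to 99.9 FPKM in papain+MSC-Exos, 45.8 to 81 in papain and 62.6 to 84 in control. The part of these cells in the granin levels was not tested.

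The 9 gland products, among them the odorant-binding protein Obp1a, summed to 112773, 133008 and 219474 FPKM as deposited in papain+MSC-Exos, 220258, 285510 and 223940 in papain, and 309500, 271598 and 328351 in control, and their part in the deposited granin differences was not tested. For the CGRP genes and Tac1, best known from peripheral neurons, 10 of 11 markers of such neurons and their axons were under 1 FPKM in all 9 libraries, and Scn10a, the sodium channel of nociceptors, was listed at 0 throughout. Their summed scaled level was 3.94 to 4.71 FPKM in papain+MSC-Exos, 3.09 to 4.03 in papain and 3.22 to 4.36 in control. Most of this sum was 1 gene, Prph (peripherin, a neuronal filament), with scaled means of 3.63 in papain+MSC-Exos, 2.88 in papain and 2.62 in control. Prph was higher in papain+MSC-Exos than in control after scaling (0.35 ± 0.11, limma adjusted p = 0.0356) and was not called in papain against control (0.09 ± 0.11, adjusted p = 0.627). The part of nerve fibres in the levels of Calca, Calcb and Tac1 was not tested.

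**Figure D3:**
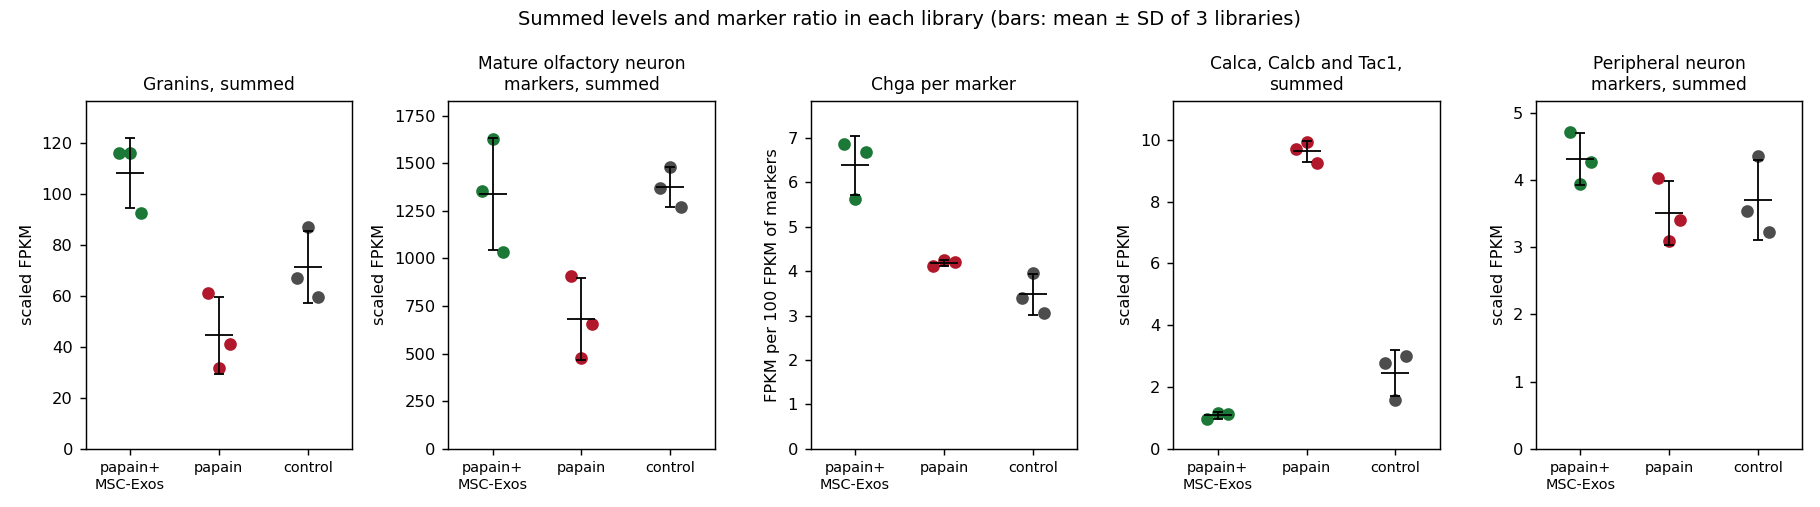
Summed scaled FPKM per library of the 5 granins, the 15 markers of mature olfactory neurons, Calca with Calcb and Tac1, and the 11 peripheral neuron markers, and Chga per 100 FPKM of olfactory neuron markers; points are libraries and bars are mean ± SD of 3. The granin sum and the olfactory markers are both lowest in papain, while the sum of Calca, Calcb and Tac1 is 9.24 to 9.94 FPKM there and at most 3 FPKM elsewhere.

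The genes of most similar pattern over the 9 libraries, by Pearson correlation of scaled log2 levels among tested genes, were Rd3 (0.995), Gpr162 (0.995) and Mapk8ip1 (0.989) for Chga, and Lmcd1 (0.987), Arl2 and Coro2b (both 0.970) for Chgb. Mapk8ip1, a scaffold of the JNK pathway, averaged 23.3 scaled FPKM in papain+MSC-Exos, 11.4 in papain and 16.3 in control, the same order as Chga. For Calca they were Pla2g4c (0.993), Gsdmc2 (0.992) and Itgav (0.990), and for Calcb Anxa4 (0.982), Anxa1 (0.982) and Ccl24 (0.976). Gsdmc2, of the gasdermin C family, averaged 0.0285 scaled FPKM in papain+MSC-Exos, 3.51 in papain and 0 in control, and Ccl24, an eosinophil-attracting chemokine, averaged 0.0904 in papain+MSC-Exos, 3.49 in papain and 0.036 in control. Within groups the correlation of Ccl24 with Calcb was -0.26, so their likeness lies between the group means. Anxa1, annexin A1, was likewise highest in papain, at 402 scaled FPKM, against 159 in papain+MSC-Exos. For Tac1 they were Tra2b (0.977), Flrt2 (0.975) and Trp63 (0.975), the transcription factor of basal epithelial cells, which averaged 1.99 scaled FPKM in papain+MSC-Exos, 3.64 in papain and 2.89 in control. Scg3 was nearest to Ston1 (0.961), Scg5 to Saraf (0.977) and Scg2 to Bmpr1b (0.942). These lists were picked for likeness on the same 9 libraries and carry no test.

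The machinery of peptide secretion was described by gene lists from general knowledge, chosen with earlier results of these data known. The counts and p-values for these lists, here and in the paragraphs below, are therefore a description and not independent evidence. Of 19 genes of dense-core vesicles and exocytosis, 15 were tested. Against papain, 13 rose with papain+MSC-Exos as deposited and 9 after scaling (among them Ptprn, Rab3a, Syt7, Snap25, Vamp2 and Cyb561), beside 63% and 13.4% of all genes, and 0 fell. Their median scaled difference was 0.43, against -0.01 over all genes. Syt7, a calcium sensor of granule fusion, had 11.6, 14 and 7.92 scaled FPKM in papain+MSC-Exos, 4.89, 1.92 and 3.87 in papain, and 5.37, 7.61 and 5.87 in control. Its difference from papain was 1.44 ± 0.26 (limma adjusted p = 0.00586), larger than those of Rab3a, a vesicle GTPase (0.76 ± 0.13, adjusted p = 0.00496), and Cyb561, the granule cytochrome that supplies electrons for amidation and catecholamine synthesis (0.43 ± 0.08, adjusted p = 0.00598). All 3 calls held in every scaled fit without 1 library. Against control, 3 rose with papain+MSC-Exos after scaling (Ptprn2, Rab3a and Cyb561) and Rab27b fell, where 12.3% of all genes were higher and 15.6% lower. As deposited 14 were higher and 0 lower, where 84.3% of all genes were higher. Of these 4 scaled calls that of Cyb561 (0.42 ± 0.08, adjusted p = 0.00603) held in all 9 fits without 1 library, that of Rab3a in 7, that of Rab27b in 5 and that of Ptprn2 in 4.

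In papain against control the same list had 0 limma calls as deposited (2 at an unadjusted p under 0.05), and 2 of 15 fell after scaling, beside 4.15% of all genes. Ptprn, the granule membrane protein IA-2, had 0.334, 0.154 and 0.32 scaled FPKM in papain and 1.14, 1.74 and 1.07 in control, a difference of -0.86 ± 0.14 (limma adjusted p = 0.00506) that held without any single library. Since Ptprn was under 1 FPKM in every papain library, the filter admitted it only through control and papain+MSC-Exos libraries, where it was higher. Snap25, a fusion protein of nerve terminals, differed by -0.85 ± 0.23 (adjusted p = 0.0427), and this call held in 2 of 9 fits without 1 library. Both genes were named here because they alone passed.

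Of 9 enzymes that process and amidate prohormones, 6 were tested. In papain against control 0 passed by limma on either scale (1 as deposited and 2 after scaling at an unadjusted p under 0.05). In papain+MSC-Exos against papain 4 rose as deposited (Pam, Qpct, Pcsk6 and Furin), a share near the 63% of all genes, but 0 after scaling, where Cpd, a carboxypeptidase, fell (-0.29 ± 0.09, adjusted p = 0.0327, held in 5 of 9 fits without 1 library). Cpe, the carboxypeptidase that trims most neuropeptides, had 48.2, 51.1 and 40.4 scaled FPKM in papain+MSC-Exos, 64, 44.1 and 46.3 in papain, and 41.5, 47.2 and 40.5 in control. Its groups overlapped, unlike those of Chga. Pcsk1 and Pcsk2, the neuroendocrine convertases, were too low to test, at no more than 0.445 and 1.15 FPKM in any library. The other granin-like genes, Vgf and Pcsk1n, stayed at or below 0.159 and 0.187 FPKM.

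Of 16 receptor genes for the peptides, 6 were tested: Calcrl, Ramp1, Ramp2, Crcp, Vipr1 and Tacr1. With papain against control 1 rose as deposited and 0 after scaling (3 at an unadjusted p under 0.05, by limma). Of all genes 3.01% and 5.77% did. With papain+MSC-Exos against papain 5 rose as deposited, where 63% of all genes did, and 0 after scaling (1, lower, at an unadjusted p under 0.05). With papain+MSC-Exos against control 4 rose as deposited, where 84.3% of all genes did. After scaling 1 rose (Ramp1) and 1 fell (Crcp, held in 5 of 9 fits without 1 library), beside 12.3% and 15.6%. Ramp1, which joins Calcrl to form the CGRP receptor, had 11.7, 8.38 and 9.33 FPKM in papain+MSC-Exos, 5.33, 5.65 and 5.88 FPKM in papain, and 3.07, 2.35 and 3.17 FPKM in control. The papain libraries were all above control, and the exosome-treated libraries were above both as deposited. Ramp1 rose with papain as deposited (0.78 ± 0.19, limma adjusted p = 0.02) but not after scaling (0.61 ± 0.17, adjusted p = 0.051), and the deposited call was lost without any of the 3 control libraries (0.68 to 0.84) or papain library 3 (0.75), without a filter (adjusted p = 0.0838) and after rescaling to a common sum (0.90, adjusted p = 0.164). Against control, papain+MSC-Exos was higher on both scales, by 1.48 ± 0.19 (adjusted p = 1.59e-05) and 0.68 ± 0.17 (adjusted p = 0.0189). The scaled call was lost without control library 2 (0.57) or papain+MSC-Exos library 1 (0.66). Against papain the difference was 0.70 ± 0.19 (adjusted p = 0.00475) as deposited and 0.06 ± 0.17 (adjusted p = 0.808) after scaling. Calcrl itself had 1.5, 1.84 and 1.42 FPKM in papain+MSC-Exos, 1.05, 1.07 and 1.45 in papain, and 1.07, 1.2 and 1.09 in control, and passed no test by limma. Tacr1, the substance P receptor, had scaled means of 2.48 in papain+MSC-Exos, 2.33 in papain and 1.62 in control and passed no scaled test.

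**Figure D4:**
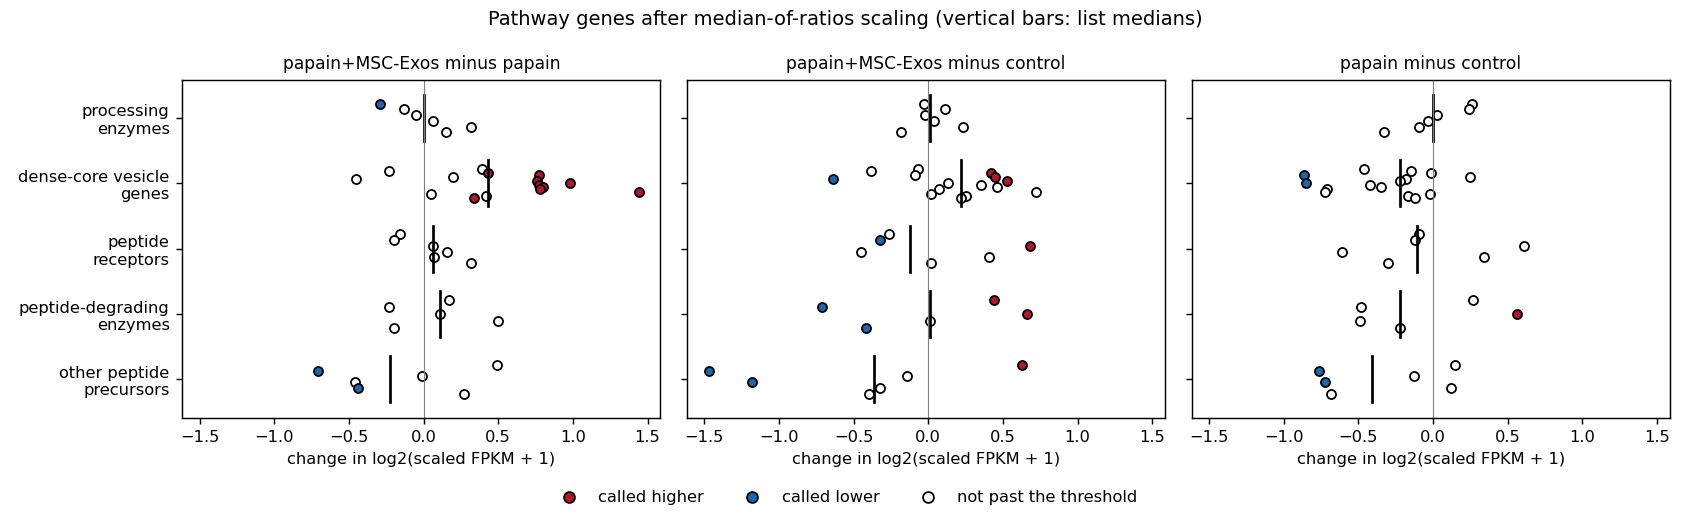
Difference on the log2(scaled FPKM + 1) scale for each tested gene of 5 lists in papain+MSC-Exos minus papain, papain+MSC-Exos minus control and papain minus control; filled red and blue points were called higher and lower by limma, open points were not called, and vertical bars are list medians. In the first panel 9 of 15 dense-core vesicle genes are called higher, and 0 of 6 receptors are called.

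All 5 peptide-degrading ectoenzymes were tested. As deposited 3 were called higher in papain+MSC-Exos against papain, beside 63% of all genes, and against control, beside 84.3%. After scaling 0 were called against papain. Against control 2 were then higher and 2 lower, beside 12.3% and 15.6%. Ece1, the endothelin-converting enzyme that also cleaves CGRP and substance P, had 28.5, 27.6 and 22.8 scaled FPKM in papain+MSC-Exos, 26.5, 20.1 and 26.6 in papain, and 16.1, 16.6 and 15.7 in control. Both papain-treated groups lay above control. It rose with papain after scaling (0.56 ± 0.12, limma adjusted p = 0.0188), in 5 of 9 fits without 1 library, and not as deposited (0.78 ± 0.25, adjusted p = 0.0892). It was higher in papain+MSC-Exos than in control on both scales (1.58 ± 0.25, adjusted p = 7.88e-05, and 0.66 ± 0.12, adjusted p = 0.00538). Ace, another peptidase that cuts substance P, was also higher in papain+MSC-Exos than in control (0.44 ± 0.08 after scaling, adjusted p = 0.00471), whereas Dpp4, which cuts neuropeptide Y, fell (-0.71 ± 0.15 after scaling, adjusted p = 0.00877), as did the neprilysin gene Mme (-0.42 ± 0.12, adjusted p = 0.0249, held in 5 of 9 fits without 1 library). As deposited neither Dpp4 nor Mme was called.

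Of 26 other neuropeptide precursors, 6 were tested. After scaling 2 fell with papain against control (Cck and Nucb2), beside 4.15% of all genes, and 0 were called as deposited (2, both lower, at an unadjusted p under 0.05, by limma). With papain+MSC-Exos against papain 2 fell after scaling (Cck and Penk), beside 16.2%, whereas as deposited 3 rose (Tac4, Nmb and Cartpt), beside 63%, and 0 fell. With papain+MSC-Exos against control 1 rose (Cartpt) and 2 fell (Cck and Nucb2) after scaling, beside 12.3% and 15.6% of all genes. As deposited 2 rose (Nmb and Cartpt) and 1 fell (Cck), beside 84.3% and 0.526%. The scaled calls of Nucb2 in papain against control and of Penk each held in 4 of 9 fits without 1 library. Cck, cholecystokinin, fell in both treated groups after scaling, with 1.54, 0.9 and 1.66 scaled FPKM in papain+MSC-Exos, 2.66, 3.46 and 2.44 in papain, and 5.31, 5.47 and 5.65 in control. The 3 groups did not overlap. The scaled difference was -0.71 ± 0.14 in papain+MSC-Exos against papain (limma adjusted p = 0.00713), -1.47 ± 0.14 against control (adjusted p = 0.000485) and -0.76 ± 0.14 in papain against control (adjusted p = 0.00919). Of these 3, only that of papain+MSC-Exos against control was also called as deposited (-0.80 ± 0.19, adjusted p = 0.000984), and it was lost after rescaling to a common sum (-0.49, adjusted p = 0.128). Cartpt, the cocaine- and amphetamine-regulated transcript, was highest with exosomes as deposited, with 33.8, 37.2 and 23.8 FPKM in papain+MSC-Exos, 20.8, 8.26 and 13.4 FPKM in papain, and 10.2, 11.7 and 8.43 FPKM in control. It was higher in papain+MSC-Exos than in control on both scales (1.54 ± 0.25, adjusted p = 0.000117, and 0.63 ± 0.17, adjusted p = 0.0255), the scaled call holding in 5 of 9 fits without 1 library.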

How the data were processed

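RNA of nasal mucosa from 3 groups of 3 libraries was sequenced by the submitters; groups and library numbers come from the sample titles. The authors deposited FPKM values for 21930 Ensembl identifiers, made with fastp 0.19.4, HISAT2 and StringTie on mm10, per the submitters' processing notes; the sources used here do not give the annotation, the strand setting or the handling of reads that match several genes. FPKM is relative to the library total, so the value of a gene also depends on the abundance of all others. Symbols were found for 21817 rows. Coordinates are from GENCODE M21 and promoter windows from RefSeq (GRCm38.p6), with 9 of 10 genes matched.

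Values were tested as log2(FPKM + 1), which understates the change of low genes, with limma 3.58.1 (R 4.3.3; mean-variance trend, 1 fit of all 9 libraries with 6 residual degrees of freedom) for genes of at least 1 FPKM in at least 3 libraries (12738 genes; 12507 after scaling), with Benjamini-Hochberg adjustment over all genes tested and a threshold of 0.05. Scaling divided each library by its median ratio to the geometric mean over 16486 rows above 0 in all libraries. Low values were rarely whole multiples of a single fragment (14.9% to 18.5% within 5%), so reads could not be recovered and depths of 15.3 to 25.4 M fragments (M, mega) are rough. The search for the value of 1 fragment could give only 12.5 to 33.3 M, so these depths are bounded by the window chosen. The fit was tested on simulated data. Same-numbered libraries did not deviate together (correlations -0.34 to 0.14), so numbers were not treated as pairs.

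The genes and lists were chosen with earlier results of these data known. All 10 were described; of each pathway list, up to 3 called genes of smallest p per comparison could be named, and Ptprn, Snap25, Cpe, Calcrl, Dpp4, Mme and other genes outside that rule were chosen after their values were seen. Pairs of libraries had Spearman correlations of 0.960 to 0.983 inside a group and 0.920 to 0.958 across groups. Alternatives were a pseudocount of 0.1, other filters and scalings, a replicate block, 2-group fits, no trend and leaving out each library. Leaving libraries out with the tested genes held fixed was added after seeing the data. Python 3.11.15, pandas 2.3.3, NumPy 2.4.6 and matplotlib 3.10.9 were used.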

Additional observations from a re-analysis of the deposited data

How the results depend on the processing

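Counts of the granin and neuropeptide genes called stayed within 1.5 times of the deposited counts under a pseudocount of 0.1, no filter, rescaling to a common sum, fits of 2 groups, no trend and a replicate block. At a filter of 5 FPKM, where 3 of the genes were tested, 0 were called higher in papain against control and 0 lower in papain+MSC-Exos against papain, because Calca, Calcb and Tac1 were not tested there. In papain+MSC-Exos against control, median-of-ratios scaling gave 1 higher and 1 lower, against 4 and 0 as deposited, and the replicate block on scaled values gave the same 1 and 1. The block as deposited changed no count, and titles' numbers do not pair the libraries.

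Over all fits without 1 library, on both scales, the counts ran from 0 to 3 higher and 0 to 2 lower in papain against control, 2 to 5 higher and 1 to 3 lower in papain+MSC-Exos against papain, and 0 to 5 higher and 0 to 1 lower in papain+MSC-Exos against control. The 0 higher in papain against control, and the 1 lower in papain+MSC-Exos against papain, came with a papain library left out. Calca and Calcb then no longer met the filter. With the tested genes held fixed, which keeps both genes in by construction, the lowest of these 2 counts were 2 and 3. The 0 higher in papain+MSC-Exos against control was on scaled values and remained with the tested genes held fixed.

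Between papain+MSC-Exos and control, Scg5 turned to -0.27 and the carboxypeptidase gene Cpd to -0.03 after scaling, with and without the block. Without 1 library they ranged from -0.40 to 0.80 and from -0.11 to 0.96, and Pam, the amidating enzyme, from -0.05 to 1.02. In papain+MSC-Exos against papain, the ranges were -0.02 to 0.86 for Pam, -0.07 to 0.79 for Ramp1 and -0.02 to 1.06 for Ece1. All negative values were on the scaled values. The cause was not tested. Genes listed near 0 FPKM, such as Calca outside the papain libraries and Vip, are limited by depth.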
